A study of Arabidopsis thaliana with 12 samples.

Results

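The ABA response of cdk8 seedlings was set against that of wild type (WT) seedlings of Arabidopsis thaliana, as the difference of 2 differences: ABA minus mock in cdk8, minus ABA minus mock in WT, on the log2 scale. All 12 libraries of the series entered, 3 in each of 4 groups, and 21151 of 33602 counted genes were tested. The groups were cdk8 after 50 µM abscisic acid (ABA) for 3 h, cdk8 after mock treatment, WT after 50 µM ABA for 3 h and WT after mock treatment. Each library was made from total RNA of whole seedlings aged 1 week. The labels give no allele or background for cdk8, and no statement on whether libraries came from separately grown seedlings, so p-values measure the spread between these libraries only. In the sample titles the library number of cdk8 ABA replicate 3 stands apart from the unbroken run of the others. Whether that library was prepared apart is not stated. The column headers call the mock libraries 0h, so an ABA response may also hold 3 h of time and handling, which cannot be told apart from ABA here; whether time and handling act alike in cdk8 and WT was not tested.

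ABA is the plant hormone of drought, seed dormancy and stomatal closure. Its PYR/PYL receptors inhibit clade A PP2C phosphatases, which frees SnRK2 kinases such as SnRK2.6 to phosphorylate ABF-type bZIP factors, and these bind ABA-responsive elements with the core ACGTG in target promoters. CDK8 is the kinase of the Mediator kinase module, a detachable part of the coactivator complex that links transcription factors to RNA polymerase II. The series title names RAP2.6, an AP2/ERF transcription factor, and SnRK2.6 as proteins associated with CDK8.

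A positive difference means that the log2 response to ABA was higher in cdk8 than in WT: a stronger induction or a weaker repression. A gene was called where its p, adjusted by Benjamini-Hochberg over all genes tested, was under 0.05 in edgeR's quasi-likelihood F test, the source of every adjusted p below. In all, 5.21% of genes tested were called: 501 higher in cdk8 (2.37%) and 602 lower (2.85%), so 45.4% of the called genes were higher. With upper-quartile in place of TMM scaling the split was 651 higher and 462 lower, or 58.5% higher. The median difference over all genes tested was 0.01. ABA itself raised 6466 genes (30.6%) and lowered 6430 (30.4%) in cdk8, against 6751 raised (31.9%) and 6934 lowered (32.8%) in WT.

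Depth ran from 17675785 to 27415053 assigned fragments per library, and the cdk8 ABA libraries were the deepest, at 24292745 or more. With every library thinned to the smallest, 468 genes were called higher and 560 lower. WT ABA replicate 3 and cdk8 ABA replicate 2 stood apart from the other libraries of their groups, with scores of −26.7 and −33.7 on the fourth principal component. Without both, 896 genes were called higher and 1167 lower, and these included 457 of the 501 and 565 of the 602. Leaving out cdk8 mock replicate 1 gave 253 higher and 287 lower, and leaving out WT ABA replicate 3 gave 666 and 827. The fit without cdk8 ABA replicate 3, the library numbered apart, called 399 higher and 438 lower. CPM values are counts scaled to a common library size, corrected by the TMM factor.

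Weaker or lost induction and weaker or lost repression were the 2 most frequent kinds of difference. Their order depended on the scaling and the threshold: upper-quartile scaling gave 292 genes of weaker or lost induction and 419 of weaker or lost repression, and a 2-fold limit gave 136 and 160. Among the 1103 called genes, 401 were induced in WT and called lower in the difference (36.4%): 254 were still induced in cdk8 and 147 were not called induced there. Their median response was 0.58 in cdk8 and 1.51 in WT. Weaker or lost repression held 319 genes (28.9%), 174 weaker and 145 not called repressed in cdk8, with a median response of −0.40 in cdk8 and −1.47 in WT. Stronger repression in cdk8 (73 genes) or repression called in cdk8 but not in WT (87) made up 160 genes. Stronger induction (77) or induction called in cdk8 but not in WT (76) made up 153. The remaining 70 genes had called responses of opposite direction. A response named lost or gained is one that missed the threshold in one genotype, and since the responses and their difference share libraries, the classes describe the called genes and add no test.

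**Figure D1:**
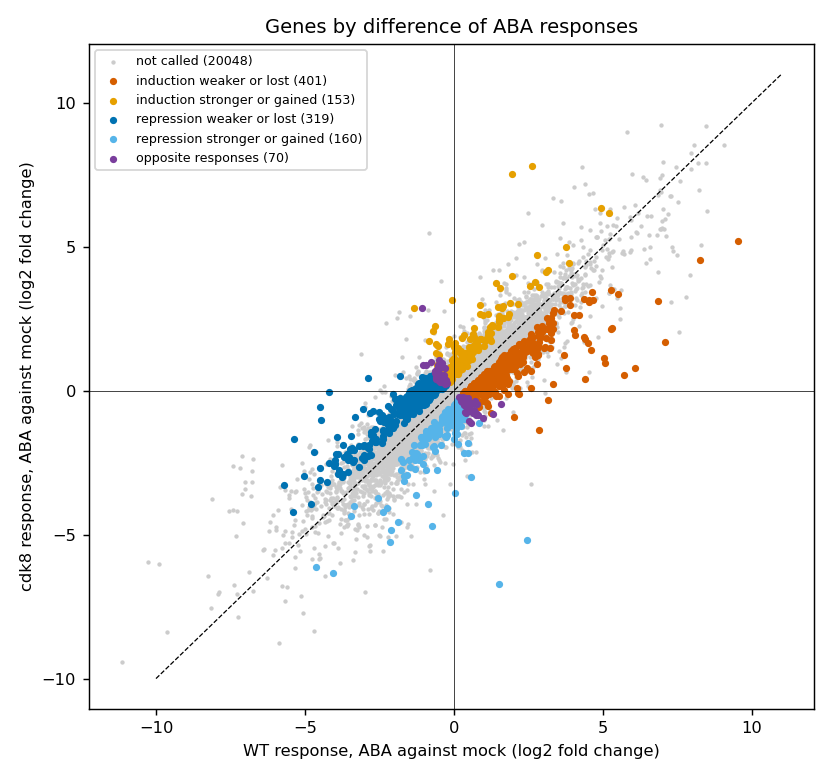
Log2 fold change of ABA against mock in cdk8 (vertical axis) and in WT (horizontal axis) for each gene tested, coloured by class where the difference was called and grey where it was not. The dashed line marks equal responses; the 401 genes of weaker or lost induction lie below it on the right and the 319 of weaker or lost repression above it on the left.

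The same difference can arise from levels that part after ABA or from levels that already differ after mock, so each called gene was also compared between cdk8 and WT within each treatment. Genotype levels were called different after ABA only for 626 genes (56.8%), after mock only for 268 (24.3%), after both in the same direction for 71, after both in opposite directions for 99 and after neither for 39. Over all genes tested, cdk8 and WT differed for 23.6% after ABA and 13.1% after mock. Weaker or lost induction was mostly a difference under ABA, with 285 of 401 genes called after ABA only (71.1%) and 41 after mock only (10.2%). Stronger or gained induction had the other order, with 52 of 153 genes called after ABA only (34%) and 65 after mock only (42.5%). Weaker or lost repression was between them, with 164 of 319 after ABA only (51.4%) and 97 after mock only (30.4%). A level not called different after mock is not shown to be equal there.

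**Figure D2:**
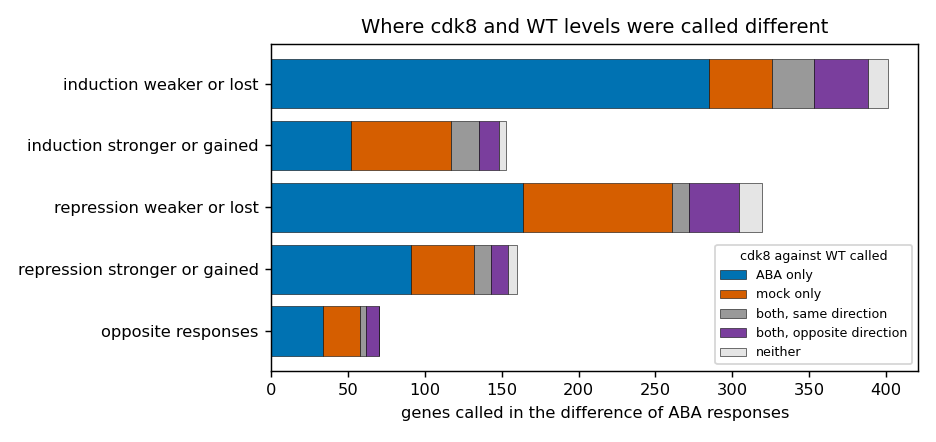
Number of genes called in the difference of ABA responses (horizontal axis) in each response class, split by the treatment in which cdk8 and WT levels were called different. Genes called after ABA only make up 285 of 401 in weaker or lost induction, and genes called after mock only make up 65 of 153 in stronger or gained induction.

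The log2 scale matters most for the 71 genes that differed in the same direction after both treatments. There the change in CPM had the same sign as the log2 difference for 46 (64.8%), against 620 of the 626 genes called after ABA only (99%). FER1, a ferritin that stores iron, rose by 234 CPM in cdk8 and 293 CPM in WT, yet its log2 response was higher in cdk8 (1.00 ± 0.25, SE). Its levels were 326, 230 and 330 CPM in cdk8 ABA and 47.6, 78.3 and 57.7 CPM in cdk8 mock libraries, against 416, 564 and 520 CPM in WT ABA and 217, 216 and 187 CPM in WT mock libraries. All cdk8 libraries were below all WT libraries of the same treatment, so FER1 had a larger fold from a lower start. WRKY40, a defence regulator, was the same: 38.0 CPM gained in cdk8 and 63.2 CPM in WT, with a log2 difference of 1.28 ± 0.32. Over all called genes 33 changed sign between the scales. FER1 and WRKY40 each overlap a gene on the opposite strand, and their calls were each lost in 8 of the 12 fits that left out 1 library, named in the closing section.

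The 3 genes the study names were not called. CDK8 (AT5G63610, TAIR10 chromosome 5, 25463437 to 25465897) measured 10.5, 5.2 and 9.36 CPM in cdk8 ABA and 5.24, 9.32 and 6.01 CPM in cdk8 mock libraries. WT libraries held 29.2, 29.4 and 26.7 CPM after ABA and 21.9, 19.7 and 20.3 CPM after mock. Every cdk8 library was below every WT library, and the difference of responses was −0.17 ± 0.32 (adjusted p = 0.807). RAP2.6 was induced in both genotypes, by 7.38 in cdk8 and 6.92 in WT on the log2 scale, with a difference of 0.46 ± 0.41 (adjusted p = 0.566). Its level was called lower in cdk8 than in WT after ABA (−0.99, adjusted p = 0.00331) and after mock (−1.45, adjusted p = 0.0169), and it gained 174 CPM in cdk8 and 345 CPM in WT. SnRK2.6 was induced by 1.59 in cdk8 and 2.05 in WT, a difference of −0.46 ± 0.14 (adjusted p = 0.0764). SnRK2.6 was called without WT ABA replicate 3, without both libraries that stood apart and with DESeq2, with adjusted p from 0.0293 to 0.172 over all alternatives.

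Where calls were made in the core of ABA signalling they were of 1 or 2 genes per list, given here beside the 5.21% called over all genes tested. No member was called of the Mediator kinase module (0 of 5) or the ABA receptors (0 of 10), where none passed an unadjusted p of 0.05 and DESeq2 and limma-voom called none. ABA synthesis (0 of 9) and ABA breakdown and conjugation (0 of 7) had 2 and 1 members under an unadjusted p of 0.05, and DESeq2 and limma-voom called none. Of 9 clade A PP2C phosphatase genes, the negative regulators that ABA induces, all 9 rose in both genotypes, and the difference was called for HAB1 alone (11.1% of the list; 2.76 in cdk8, 3.6 in WT; difference −0.83 ± 0.15, adjusted p = 0.00756). HAB1 was higher in cdk8 after mock and lower in cdk8 after ABA. Summed over the 9 genes, the level was 2296 to 2387 CPM in cdk8 ABA and 269.9 to 315.0 CPM in cdk8 mock libraries, against 3329 to 3899 CPM in WT ABA and 282 to 339 CPM in WT mock libraries. Of 11 ABF and ABI factors and AFP proteins, 1 was called (9.09%). ABF1, a bZIP factor of the pathway, was induced more in cdk8 (1.81) than in WT (0.92), a difference of 0.89 ± 0.12 (adjusted p = 0.0012), and it overlaps a gene on the opposite strand. Among 10 SnRK2 kinase genes, SNRK2.5 (0.93 ± 0.18) and SNRK2.9 (0.87 ± 0.19) were called higher (20% of the list). ABA lowered SNRK2.5 less in cdk8 (−0.49) than in WT (−1.42) and raised SNRK2.9 more in cdk8 (2.53) than in WT (1.66). The call of SNRK2.9 was lost without cdk8 mock replicate 1 and without WT mock replicate 3.

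Dehydration effectors, the LEA, dehydrin and related genes that ABA induces, were called lower for 2 of 27 members (7.41%), and their median difference was −0.07. All 27 rose in cdk8 and all 27 in WT, with median responses of 4.40 and 4.49. RD20, a caleosin of lipid droplets, measured 231, 188 and 207 CPM in cdk8 ABA and 21.4, 18.7 and 14.9 CPM in cdk8 mock libraries, against 369, 385 and 619 CPM in WT ABA and 12.5, 7.32 and 15.9 CPM in WT mock libraries. After ABA every cdk8 library was below every WT library, and the difference of responses was −1.76 ± 0.35 (adjusted p = 0.012). RD22, a BURP-domain protein, differed by −0.95 ± 0.22 (adjusted p = 0.0274), and that call was lost in 7 fits that left out 1 library. Summed levels of the 27 genes were 30760.0 to 33210.0 CPM in cdk8 ABA and 2360 to 2673 CPM in cdk8 mock libraries. In WT they were 38840.0 to 43550.0 CPM after ABA and 3273 to 3638 CPM after mock, so the cdk8 sums were lower after both treatments.

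Sugar transport and sugar use held the gene with the smallest p. SWEET2 (AT3G14770, chromosome 3, 4957334 to 4959704), a vacuolar sugar transporter, measured 21.3, 22.3 and 19.9 CPM in cdk8 ABA and 23.2, 22.4 and 23.0 CPM in cdk8 mock libraries. In WT it measured 80.2, 70.3 and 62.8 CPM after ABA and 18.7, 22.4 and 19.4 CPM after mock. The WT libraries after ABA stood above all 9 others, and ABA gave no call in cdk8 (−0.11 ± 0.10), against a rise in WT (1.81 ± 0.10). The difference was −1.93 ± 0.15 (adjusted p = 2.36e-05) and was called without each library in turn. SWEET15, a plasma membrane sugar transporter induced in senescence, was induced by 1.43 in cdk8 and 4.60 in WT, a difference of −3.17 ± 0.37 (adjusted p = 0.000912), and was already higher in cdk8 after mock. DIN2, a beta-glucosidase induced in the dark, rose by 1.79 in cdk8 and 4.41 in WT (difference −2.62 ± 0.43, adjusted p = 0.00476). In all, 3 of 17 sugar genes were called, all lower. SUS1, a sucrose synthase in the hypoxia list, measured 240, 292 and 210 CPM in cdk8 ABA and 30.9, 26.6 and 26.0 CPM in cdk8 mock libraries, against 1000, 690 and 897 CPM in WT ABA and 42.1, 32.0 and 37.4 CPM in WT mock libraries. Its difference was −1.38 ± 0.22 (adjusted p = 0.00441), and it was the only call among 14 hypoxia genes (7.14%).

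**Figure D3:**
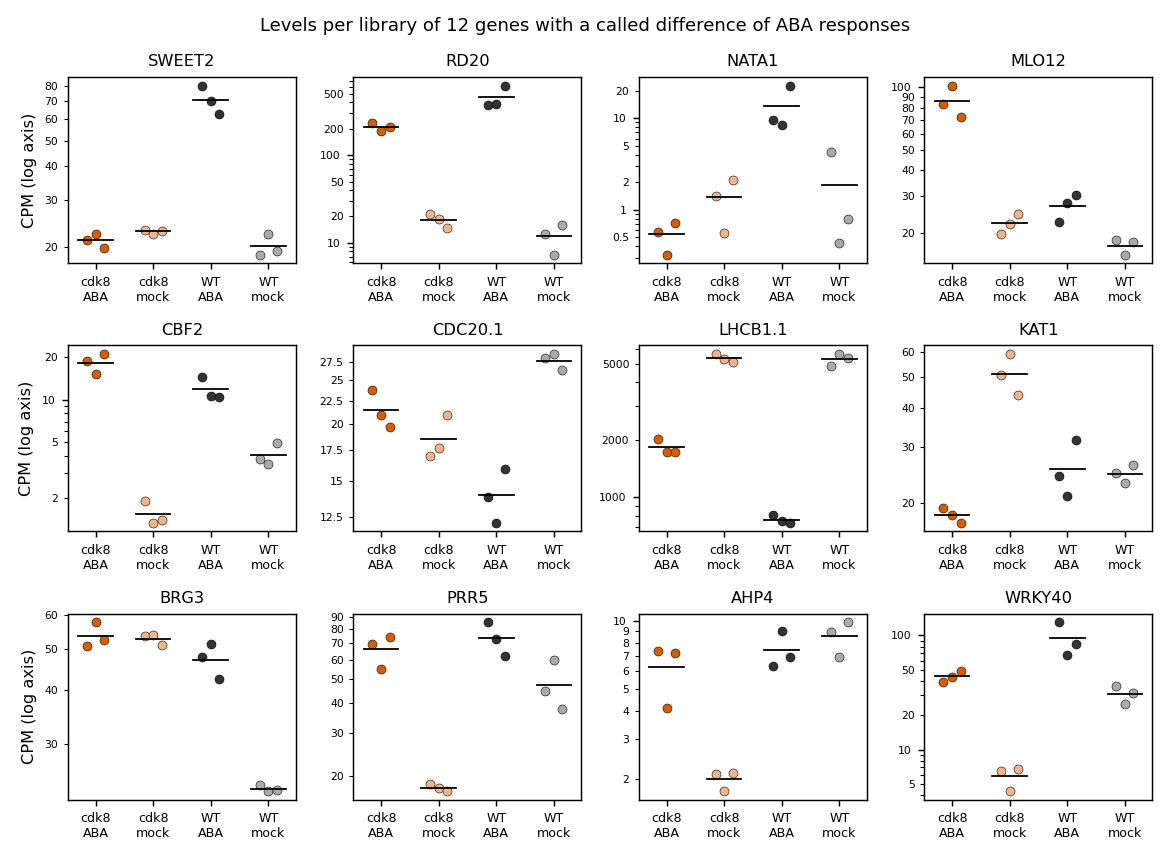
CPM on a log axis in each library (points) with the group mean (line) for 12 genes whose difference of ABA responses was called; groups are cdk8 ABA, cdk8 mock, WT ABA and WT mock from left to right. SWEET2 is high in WT ABA libraries alone, MLO12 in cdk8 ABA libraries alone, BRG3 is low in WT mock libraries alone, and PRR5 and AHP4 are low in cdk8 mock libraries alone.

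A minority of cuticle genes had weaker or lost induction in cdk8. Of 21 genes of wax and cutin, 4 were called lower and none higher (19%, against 5.21% of all genes tested). The median difference was −0.34. CER1 and CER3, which form alkanes of the wax, were induced by 0.31 and 0.51 in cdk8 and by 1.16 and 1.71 in WT. CER1 measured 39.8, 38.5 and 36.2 CPM in cdk8 ABA and 30.8, 35.4 and 26.3 CPM in cdk8 mock libraries, against 75.9, 71.1 and 77.1 CPM in WT ABA and 34.4, 30.3 and 35.2 CPM in WT mock libraries. The cdk8 and WT libraries overlapped after mock and did not after ABA (difference −0.86 ± 0.15, adjusted p = 0.00599). The induction of ABCG11, a cutin and wax exporter, and of GPAT4, a cutin acyltransferase, was called in WT (0.83 and 0.67) and not in cdk8 (0.10 and 0.11). ABCG11 overlaps a gene on the opposite strand. Without both libraries that stood apart, 7 cuticle genes were called lower, and with a 2-fold limit 1 was.

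Among genes with a symbol and a mean of at least 5 CPM in a group, the largest differences of weaker or lost induction under ABA only were in genes of low level after mock. NATA1, an acetyltransferase acting on ornithine and polyamines, measured 0.568, 0.322 and 0.723 CPM in cdk8 ABA and 1.43, 0.555 and 2.1 CPM in cdk8 mock libraries, against 9.67, 8.52 and 22.7 CPM in WT ABA and 4.32, 0.428 and 0.792 CPM in WT mock libraries. JRG21, a jasmonate-regulated oxygenase, measured 9.98, 5.8 and 7.43 CPM in cdk8 ABA and 3.44, 1.11 and 7.22 CPM in cdk8 mock libraries, against 30.6, 26.6 and 86.6 CPM in WT ABA and 1.92, 0.998 and 1.32 CPM in WT mock libraries. Both were highest in WT ABA replicate 3, and in both every WT ABA library stood above all others. The differences were −4.24 ± 1.01 for NATA1 (adjusted p = 0.0291) and −4.13 ± 0.81 for JRG21 (adjusted p = 0.0118). CSLG2, a cellulose synthase-like gene, differed by −3.96 ± 0.81 (adjusted p = 0.0137). NATA1 lost its call without cdk8 ABA replicate 1, cdk8 mock replicate 1, cdk8 mock replicate 3 or WT mock replicate 3, and JRG21 lost it with limma-voom. PR3, a basic chitinase, was induced by 1.83 in WT with no call in cdk8 (0.23), a difference of −1.60 ± 0.21 (adjusted p = 0.0012); it overlaps a gene on the opposite strand.

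The promoter windows of NATA1 and JRG21 are shown because they led this class and each hold the ABA-responsive core. They run from 250 bases before to 50 bases after the gene start in RefSeq TAIR10.1, at chr2:16297860-16298159 on the plus strand and chr3:20769361-20769660 on the minus strand, with the core ACGTG, or its reverse complement, in capitals.
NATA1: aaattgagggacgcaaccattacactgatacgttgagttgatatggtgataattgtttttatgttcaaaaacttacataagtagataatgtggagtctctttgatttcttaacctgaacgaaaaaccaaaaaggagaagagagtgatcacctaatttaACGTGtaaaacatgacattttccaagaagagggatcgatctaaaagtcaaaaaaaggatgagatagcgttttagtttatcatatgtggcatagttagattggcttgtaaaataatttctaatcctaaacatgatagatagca
JRG21: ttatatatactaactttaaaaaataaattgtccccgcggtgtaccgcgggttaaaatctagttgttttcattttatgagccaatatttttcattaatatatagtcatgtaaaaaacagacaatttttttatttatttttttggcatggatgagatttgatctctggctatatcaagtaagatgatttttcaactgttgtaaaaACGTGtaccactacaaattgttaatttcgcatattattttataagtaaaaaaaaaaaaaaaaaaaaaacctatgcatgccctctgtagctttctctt
ACGTG stood on either strand in 28.4% of 21034 such windows of genes tested, in 33.4% of the 401 windows of weaker or lost induction and in 41.8% of the 153 of stronger or gained induction. Among the 27 dehydration effectors 22 windows held it (81.5%). The shares were 27.3% for weaker or lost repression and 28.1% for stronger or gained repression, near that of all genes. Among the named genes that led the other classes under ABA only, the windows of MLO12, GRF5, NIP6;1 and TPS04 held no ACGTG. Those of MYB56 and EXT13 held 1 each.

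Some inductions were lost against a higher start in cdk8. BRG3, a RING-type ubiquitin ligase gene, measured 50.9, 57.9 and 52.6 CPM in cdk8 ABA and 53.6, 54.0 and 51.1 CPM in cdk8 mock libraries, against 47.9, 51.3 and 42.5 CPM in WT ABA and 24.0, 23.2 and 23.3 CPM in WT mock libraries. The WT mock libraries alone were low, and the difference of responses (−0.98 ± 0.12, adjusted p = 0.0012) stood beside a difference after mock of 1.17 ± 0.09. NAC003 (−1.04) and the cytokinin response regulator ARR4 (−0.96) were of the same kind, and their calls were lost in 7 and 9 of the 12 fits that left out 1 library.

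A smaller group of genes was induced more in cdk8, with levels that parted from WT after ABA only. MLO12, a membrane protein of powdery mildew susceptibility, measured 83.3, 102 and 71.9 CPM in cdk8 ABA and 19.8, 22.1 and 24.7 CPM in cdk8 mock libraries, against 22.6, 27.9 and 30.5 CPM in WT ABA and 18.4, 15.7 and 18.1 CPM in WT mock libraries. All cdk8 ABA libraries stood above all others (difference 1.32 ± 0.20, adjusted p = 0.00334). E12A11, also known as MFT, a regulator of seed germination, was induced by 4.2 in cdk8 and 3.14 in WT (difference 1.05 ± 0.21, adjusted p = 0.0132), with an opposite-strand gene overlapping it. GRF5, a growth-regulating factor, was called induced in cdk8 (0.77) and not in WT (−0.30), and lost its call in 7 fits that left out 1 library.

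Several named genes were induced more in cdk8, or called induced in cdk8 and not in WT, from a lower level after mock. CBF2, a cold-response factor, measured 18.7, 15.2 and 21.2 CPM in cdk8 ABA and 1.9, 1.33 and 1.4 CPM in cdk8 mock libraries, against 14.6, 10.7 and 10.5 CPM in WT ABA and 3.79, 3.47 and 4.96 CPM in WT mock libraries. Its cdk8 libraries were below those of WT after mock and above them after ABA (difference 2.02 ± 0.29, adjusted p = 0.00215). PRR5, a clock repressor, measured 69.5, 55.1 and 74.0 CPM in cdk8 ABA and 18.6, 17.9 and 17.4 CPM in cdk8 mock libraries, against 85.5, 72.9 and 62.0 CPM in WT ABA and 44.6, 59.9 and 37.7 CPM in WT mock libraries. Genotypes overlapped after ABA and did not after mock, and the difference of responses was 1.25 ± 0.23 (adjusted p = 0.00881). PRR5 was the only call among 8 evening clock genes (12.5%, against 5.21% of all genes tested). PRR9, whose repression was weaker in cdk8 (1.08 ± 0.27), was the only call among 8 morning clock genes (12.5%). PRR9 lost its call in 8 fits that left out 1 library. AHP4, a phosphotransfer protein of cytokinin signalling, measured 7.39, 4.12 and 7.19 CPM in cdk8 ABA and 2.12, 1.77 and 2.14 CPM in cdk8 mock libraries, against 6.31, 8.99 and 6.93 CPM in WT ABA and 8.89, 6.94 and 9.87 CPM in WT mock libraries. Its cdk8 mock libraries alone were low, and its difference of responses was 1.83 ± 0.33 (adjusted p = 0.0073). ABCG40, an ABA importer of the plasma membrane, had a larger difference (3.22 ± 0.77, adjusted p = 0.0298), but WT mock replicate 2 held 4.66 CPM against 36.5 and 40.8 CPM in the other WT mock libraries, and the call was lost in 7 fits that left out 1 library.

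Of 23 drought and cold factors, 3 were called higher and 2 lower (21.7%, against 5.21% of all genes tested). CBF1 was called higher (1.93 ± 0.44), but it gained 4.45 CPM in cdk8 and 6.86 CPM in WT, was lower in cdk8 after both treatments and had 10 counts in all cdk8 mock libraries. ZAT10, a zinc finger repressor, was induced by 1.05 in cdk8 without a call in WT (0.24). HB7, a homeodomain factor of the drought response, was induced by 3.22 in cdk8 and 3.91 in WT (difference −0.70 ± 0.14, adjusted p = 0.0124). CBF4 held 0 counts in all 3 WT mock libraries, so its fitted difference of −4.34 depends on the handling of zeros. In WT it was at least 88.6-fold higher after ABA, with the mock group of libraries set to 3 counts in all, and after ABA its levels were 3.59, 4.51 and 3.77 CPM in cdk8 ABA and 3.82, 4.85 and 4.44 CPM in WT ABA libraries. The CBF4 call was lost under 18 of 23 alternatives. CBF1 lost its call without cdk8 ABA replicate 1, cdk8 mock replicate 1, cdk8 mock replicate 2 or WT mock replicate 1.

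Genes of mitosis were called most often among the lists with 5 or more tested members. All lists were chosen with earlier results of these data known, so the shares called are descriptions and no independent test. Of 18 genes on the mitotic cell cycle list, 17 were called higher in the difference (94.4%, against 2.37% of all genes tested) and all 18 had a positive difference, with a median of 1.05. Their median ABA response was 0.01 in cdk8 and −1.09 in WT. ABA lowered 17 of them in WT and 5 in cdk8, while 4 rose in cdk8 and 1 in WT. The list holds A- and B-type cyclins, B-type cyclin-dependent kinases that drive the entry into mitosis, Aurora kinases, the cytokinesis syntaxin KN and the anaphase activator CDC20.1; the member without a call was CYCD3;1, a D-type cyclin of the earlier G1 phase (0.48 ± 0.20, adjusted p = 0.182).

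CDC20.1 (AT4G33270) measured 23.8, 21.0 and 19.7 CPM in cdk8 ABA and 17, 17.7 and 21.0 CPM in cdk8 mock libraries, against 13.8, 12.1 and 15.9 CPM in WT ABA and 28.0, 28.6 and 26.3 CPM in WT mock libraries. The cdk8 libraries were below WT after mock, above WT after ABA and overlapped between treatments (difference 1.2 ± 0.17, adjusted p = 0.00184). CYCB1;2 measured 14.5, 17.7 and 12.8 CPM in cdk8 ABA and 15.9, 18.2 and 19.7 CPM in cdk8 mock libraries, against 6.72, 6.98 and 9.57 CPM in WT ABA and 22.7, 23.5 and 21.9 CPM in WT mock libraries (difference 1.29 ± 0.21, adjusted p = 0.00476). AUR2 rose in cdk8 (0.84 ± 0.14) and fell in WT (−0.38 ± 0.14). CYCB2;3 rose in both, by 1.23 in cdk8 and 0.38 in WT. The 17 differences lay between 0.74 and 1.33 with SE of 0.12 to 0.32. CDKB1;2 and CDKB2;1 overlap opposite-strand genes.

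The mitotic difference came from both treatments. After mock 11 members were called lower in cdk8 than in WT and none higher, with a median of −0.57. After ABA 9 were called higher in cdk8 and none lower, with a median of 0.55. Among all genes tested, calls in either direction made up 13.1% after mock and 23.6% after ABA. Summed over the 18 genes, cdk8 libraries held 172 to 210.2 CPM after ABA and 187 to 208 CPM after mock, against 127 to 154 CPM after ABA and 271 to 282 CPM after mock in WT. The cdk8 ranges of the 2 treatments overlapped and the WT ranges did not. In whole seedlings, fewer dividing cells and less of these transcripts per cell cannot be told apart. All 18 differences were positive under every alternative run; leaving out 1 library left 8 to 17 calls, fewest without cdk8 mock replicate 2 and 9 without cdk8 ABA replicate 1, cdk8 mock replicate 1 or WT mock replicate 3. Without both libraries that stood apart 16 were called.

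Genes of DNA replication gave no call. On the DNA replication list, which holds the MCM helicase subunits, PCNA, ribonucleotide reductase subunits and origin licensing factors of S phase, 0 of 13 members were called in the difference, none at an unadjusted p under 0.05, and DESeq2 and limma-voom called none. ABA lowered 13 of them in cdk8 and 12 in WT, with median responses of −0.83 and −0.99, and the median difference was 0.06. Summed levels were at most 172 CPM in cdk8 ABA and at least 295 CPM in cdk8 mock libraries, against at most 167 CPM in WT ABA and at least 276 CPM in WT mock libraries. No member was called different between cdk8 and WT after either treatment.

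**Figure D4:**
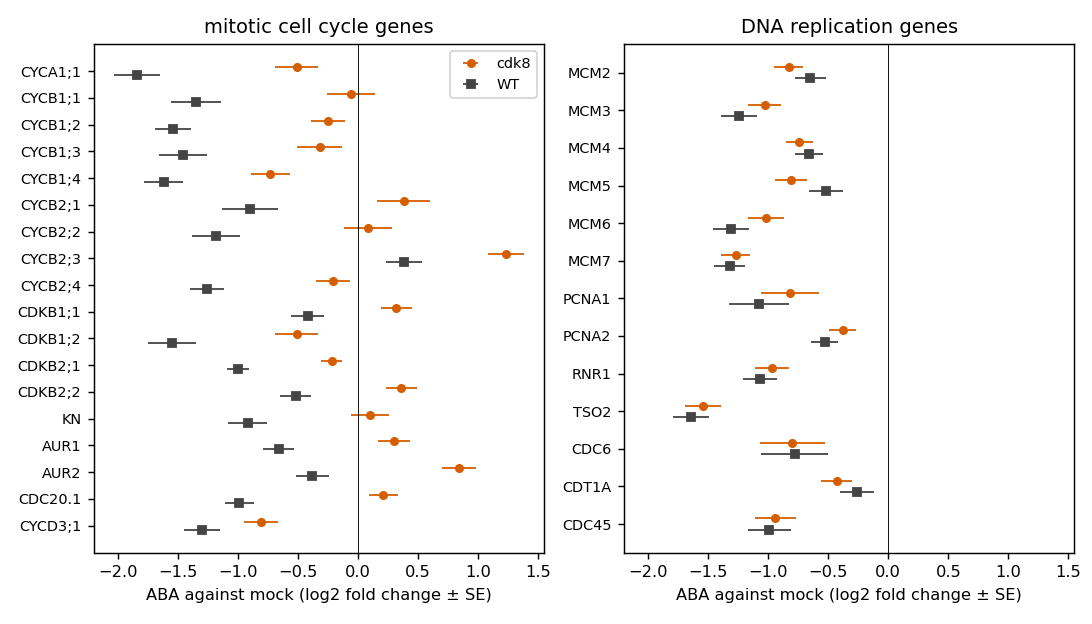
Log2 fold change of ABA against mock with its SE for each gene of the mitotic cell cycle list (left) and the DNA replication list (right), in cdk8 (circles) and WT (squares). In WT 17 of 18 mitotic genes lie left of 0 and in cdk8 they scatter around a median of 0.01, while replication genes lie left of 0 in both genotypes.

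Promoters of G2/M genes often carry mitosis-specific activator elements with the core AACGG, which MYB factors of the MYB3R type bind. The 3 mitotic genes with the largest difference are shown to let these cores be seen; the set was chosen after the values were known. The windows are again RefSeq TAIR10.1, 250 bases before to 50 after the start, at chr1:16777303-16777602, chr4:17624259-17624558 and chr5:1861654-1861953, all on the minus strand, with AACGG or its reverse complement CCGTT in capitals.
CYCA1;1: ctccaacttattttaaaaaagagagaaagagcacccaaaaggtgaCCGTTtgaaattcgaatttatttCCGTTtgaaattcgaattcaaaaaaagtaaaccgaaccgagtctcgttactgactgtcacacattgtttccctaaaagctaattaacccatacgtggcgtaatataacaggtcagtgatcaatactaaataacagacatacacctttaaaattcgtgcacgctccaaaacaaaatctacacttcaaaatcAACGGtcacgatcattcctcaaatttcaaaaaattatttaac
CYCB1;1: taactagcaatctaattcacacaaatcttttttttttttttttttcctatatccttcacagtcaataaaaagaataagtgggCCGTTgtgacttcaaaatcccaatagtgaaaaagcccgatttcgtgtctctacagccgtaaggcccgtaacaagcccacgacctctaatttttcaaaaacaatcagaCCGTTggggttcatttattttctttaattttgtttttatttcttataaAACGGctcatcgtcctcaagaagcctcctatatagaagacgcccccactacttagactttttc
CYCB1;2: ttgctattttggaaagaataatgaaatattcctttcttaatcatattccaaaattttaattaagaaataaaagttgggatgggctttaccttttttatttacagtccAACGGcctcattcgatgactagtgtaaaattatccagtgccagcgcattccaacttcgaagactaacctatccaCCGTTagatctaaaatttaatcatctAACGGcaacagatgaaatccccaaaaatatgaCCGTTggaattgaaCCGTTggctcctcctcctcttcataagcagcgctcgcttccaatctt
The core occurred 3 times in the windows of CYCA1;1 and CYCB1;1 and 5 times in that of CYCB1;2. It stood on either strand in 13 of 18 mitotic windows (72.2%) and 4 of 13 replication windows (30.8%), against 25.9% of windows of all genes tested. The 2 mitotic genes with the smallest p, CDC20.1 and CDKB2;1, held none in this window. Of the 319 windows of weaker or lost repression 39.5% held it, and of the 153 of stronger or gained induction 30.7%. The shares were 19.7% for weaker or lost induction and 18.1% for stronger or gained repression. AACGG and ACGTG were searched separately, and these shares describe letters in a window, not bound sites.

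Some light-harvesting genes were repressed less in cdk8. Of 24 genes of photosynthesis, which also include Calvin cycle enzymes, 5 were called higher and none lower (20.8%, against 5.21% of all genes tested). All 5 were LHCB genes of the chlorophyll antenna. LHCB1.1 measured 2010, 1730 and 1730 CPM in cdk8 ABA and 5620, 5310 and 5100 CPM in cdk8 mock libraries, against 806, 745 and 731 CPM in WT ABA and 4880, 5640 and 5360 CPM in WT mock libraries. The genotypes overlapped after mock and did not after ABA (difference 1.24 ± 0.15, adjusted p = 0.00106). LHCB2.1 (1.41 ± 0.28) and LHCB2.2 (1.22 ± 0.24) had differences of similar size, and LHCB1.2 (0.63 ± 0.16) and LHCB6 (0.79 ± 0.20) smaller ones. The LHCB1 and LHCB2 genes are near-identical copies among which reads can be split, and LHCB6 overlaps an opposite-strand gene. The median of the whole list was 0.16, with 14 members above 0 and 10 below, and DESeq2 called 4 members lower. Leaving out any of 9 libraries reduced the 5 calls to 3.

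MYB56, a factor that restrains cell division in the root, led the weaker or lost repression under ABA only, among genes with a symbol and at least 5 CPM. It measured 2.88, 2.94 and 3.93 CPM in cdk8 ABA and 4.34, 4.38 and 5.45 CPM in cdk8 mock libraries, against 1.1, 1.01 and 1.32 CPM in WT ABA and 4.08, 5.61 and 6.12 CPM in WT mock libraries (difference 1.65 ± 0.31, adjusted p = 0.00896). After ABA every cdk8 library stood above every WT library. NIP6;1, a boron channel (1.58 ± 0.35), and the thioredoxin-dependent peroxidase gene AT1G65970, listed as TPX2 and distinct from the spindle protein of that name (1.52 ± 0.25), followed; both overlap opposite-strand genes. NIP6;1 lost its call without cdk8 ABA replicate 1, cdk8 mock replicate 1, WT mock replicate 1 or WT mock replicate 3, without both libraries that stood apart and with limma-voom.

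Phosphate starvation genes were already low in cdk8 after mock. Of 13 tested, 4 were called higher in the difference and none lower (30.8%, against 5.21% of all genes tested), and the median difference was 0.80. After mock 10 of 13 were called lower in cdk8, after ABA none lower and 1 higher. Of all genes tested 13.1% were called in either direction after mock and 23.6% after ABA. MGD2, a galactolipid synthase, measured 5.68, 4.8 and 6.3 CPM in cdk8 ABA and 8.25, 7.65 and 10.3 CPM in cdk8 mock libraries, against 4.4, 4.44 and 3.38 CPM in WT ABA and 21.0, 15.5 and 16.2 CPM in WT mock libraries. WT mock libraries were the highest of the 4 groups (difference 1.46 ± 0.24, adjusted p = 0.00539). SQD1, of sulfolipid synthesis (0.80 ± 0.14), PHT1;4, a phosphate transporter (0.99 ± 0.26), and PS2, a phosphatase (1.97 ± 0.44), were also called. PS2 was called induced in cdk8 (1.79) and was not called in WT (−0.17), where its mock libraries spread over 62.5, 22.2 and 40.4 CPM. Limma-voom called 2 of the 4, and so did fits without cdk8 mock replicate 1, cdk8 mock replicate 3 or WT ABA replicate 2. Outside this list, repressions smaller in cdk8 from a lower start were those of ORA47, a regulator of jasmonate synthesis (1.68 ± 0.34), the mitochondrial carrier DIC2 (1.70 ± 0.38) and the expansin EXPA6 (0.62 ± 0.14). ORA47 lost its call without cdk8 ABA replicate 1, DIC2 in 5 and EXPA6 in 4 fits that left out 1 library.

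Repression that was stronger in cdk8, or called in cdk8 and not in WT, included single genes of jasmonate synthesis and of salicylic acid and systemic immunity. In the difference 1 of 10 jasmonate synthesis genes was called higher and 1 lower (20%). Of 15 genes of salicylic acid and systemic immunity 1 was called lower (6.67%). Over all genes tested 5.21% were called. LOX2, a lipoxygenase of jasmonate synthesis, measured 156, 102 and 118 CPM in cdk8 ABA and 266, 267 and 250 CPM in cdk8 mock libraries, against 251, 314 and 329 CPM in WT ABA and 301, 255 and 264 CPM in WT mock libraries. The cdk8 ABA libraries stood below all others (difference −1.19 ± 0.20, adjusted p = 0.00599). OPR3, a later enzyme of the same route, was called in the other direction (0.64 ± 0.16, adjusted p = 0.0333) and lost its call in 7 fits that left out 1 library. FMO1, of systemic immunity, measured 0.32, 0.215 and 0.281 CPM in cdk8 ABA and 2.33, 1.89 and 2.47 CPM in cdk8 mock libraries, against 0.695, 0.532 and 2.7 CPM in WT ABA and 0.961, 0.618 and 1.11 CPM in WT mock libraries (difference −3.58 ± 0.73, adjusted p = 0.0134). It was highest of its group in WT ABA replicate 3 and was called without that library. TPS04, a terpene synthase, was called lower (−8.23 ± 1.93, adjusted p = 0.0271), but the cdk8 ABA libraries held 4 counts in all, so the fitted size depends on the handling of counts near 0 and ran from −11.42 to −5.68 over the alternatives. It ranged from 0.499 to 11.8 CPM among cdk8 mock libraries, and its call was lost without WT ABA replicate 3 among 7 libraries. EXT13, an extensin of root hairs (−2.27 ± 0.59), was the only call among 15 root hair genes (6.67%). Its call too was lost in 7 such fits, those without cdk8 ABA replicate 2 and WT ABA replicate 3 among them. In CPM its fall was smaller in cdk8 than in WT.

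Guard cell genes moved in both directions. Among 17 genes of guard cells and the stomatal lineage, 1 was called higher and 3 lower (23.5%, against 5.21% of all genes tested). KAT1, an inward potassium channel of guard cells, measured 19.3, 18.3 and 17.3 CPM in cdk8 ABA and 50.5, 59.1 and 43.7 CPM in cdk8 mock libraries, against 24.3, 21.1 and 31.5 CPM in WT ABA and 24.8, 23.2 and 26.3 CPM in WT mock libraries. It was high in cdk8 mock libraries alone, fell in cdk8 (−1.48 ± 0.14) and was not called in WT (0.05 ± 0.14), a difference of −1.53 ± 0.20 (adjusted p = 0.0012). ALMT12, an anion channel of stomatal closure, was induced by 0.84 in cdk8 and 1.58 in WT (difference −0.74 ± 0.16, adjusted p = 0.0208). It lost its call without cdk8 ABA replicate 1, cdk8 mock replicate 1, WT mock replicate 2 or WT mock replicate 3. The stomatal peptide EPF2 was higher (1.22 ± 0.27) and the guard cell factor FAMA lower (−0.65 ± 0.17); EPF2 lost its call without cdk8 mock replicate 1, cdk8 mock replicate 3 or WT mock replicate 3. All 17 guard cell genes and all 15 root hair genes had counts in every library. Seed storage and oleosin genes had no call among 6 tested, with 3 at an unadjusted p under 0.05 and none called by DESeq2 or limma-voom; their summed level was 6.02 to 71.1 CPM in cdk8 ABA libraries, highest in replicate 1, and 1.22 to 4.61 CPM in WT ABA libraries.

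Iron genes differed mostly after mock, where 16 of 20 were called different between cdk8 and WT, 13 of them higher in cdk8, against 4 after ABA. Over all genes tested the share called was 13.1% after mock and 23.6% after ABA. FRO2, the ferric reductase of iron uptake, measured 1.38, 1.15 and 1.0 CPM in cdk8 ABA and 46.1, 34.0 and 56.8 CPM in cdk8 mock libraries, against 0.232, 1.01 and 0.476 CPM in WT ABA and 2.79, 2.76 and 2.06 CPM in WT mock libraries. The cdk8 mock libraries stood far above the other 9, and the repression was stronger in cdk8 (difference −3.11 ± 0.54, adjusted p = 0.00608). The call was lost without WT ABA replicate 2. Counts of FRO2 after ABA were low, with 96 in all in cdk8 and 30 in all in WT. In the difference 2 iron genes were called higher, the ferritins FER1 and FER4 (1.12 ± 0.21), and 2 lower, FRO2 and the regulator PYE (−0.94 ± 0.21). These calls made up 20% of the list, against 5.21% of all genes tested.

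Opposite responses were led by CSLB03, NHL1 and ORG1, among genes with a symbol and at least 5 CPM. NHL1, of the NDR1/HIN1-like family, measured 28.6, 39.5 and 29.6 CPM in cdk8 ABA and 61.3, 57.9 and 56.1 CPM in cdk8 mock libraries, against 102, 89.3 and 97.4 CPM in WT ABA and 63.8, 49.0 and 53.2 CPM in WT mock libraries. It fell in cdk8 (−0.84 ± 0.13) and rose in WT (0.80 ± 0.13), with genotypes overlapping after mock and apart after ABA (difference −1.64 ± 0.18, adjusted p = 0.00064). CSLB03, a cellulose synthase-like gene (−1.72 ± 0.30), and ORG1 (−1.52 ± 0.20) fell in cdk8 and rose in WT from higher mock levels in cdk8.

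**Figure D5:**
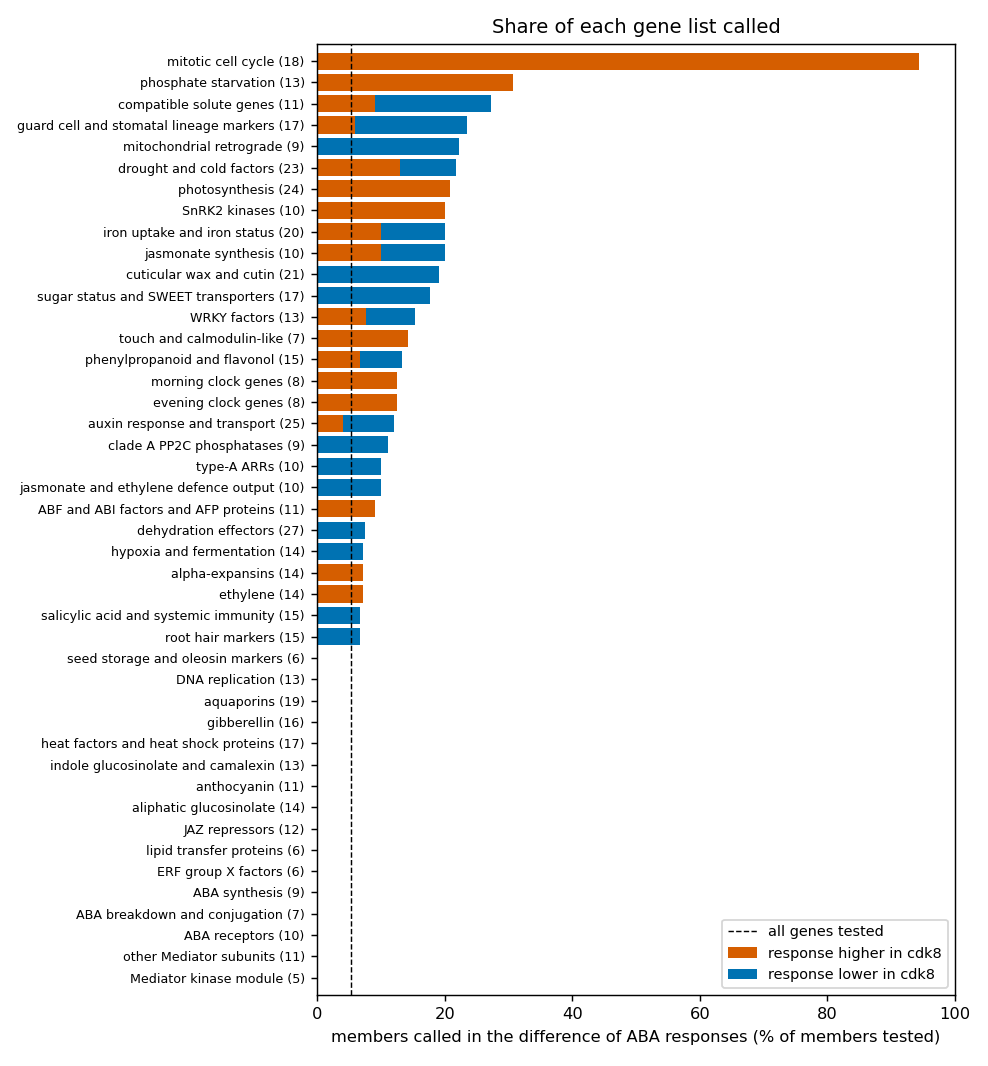
Share of the tested members of each gene list (number in brackets) called in the difference of ABA responses, in percent, with higher and lower calls stacked and the share over all genes tested (5.21%) as a dashed line. The mitotic cell cycle list stands at 94.4%, and the next highest, phosphate starvation, at 30.8%. The lists were chosen with earlier results of these data known.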

How the data were processed

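RNA-seq of 12 libraries was analysed, 3 in each of 4 groups. The deposited values are whole-number counts of fragments per gene made by the authors with featureCounts 1.4.6 over annotated exons (Ensembl, TAIR10), per the file headers; FastQC and TopHat2 are named in the submitters' processing notes. No strand option stands in the header, so overlapping genes on opposite strands cannot be told apart. Depth per library is given with the results, and 3 counts set the floor.

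Genes were kept by filterByExpr over the 4 groups, scaled by TMM and fitted with edgeR 4.0.16 (R 4.3.3) as 4 group means, with a quasi-likelihood F test of the difference of ABA responses and Benjamini-Hochberg adjustment. SE was taken as the size of a log2 fold change over the root of its F. The fit was tested on simulated data. DESeq2 1.42.0, limma-voom (limma 3.58.1), other scalings and filters and left-out libraries were alternatives. Members and gene lists were chosen with earlier results of these data known. Named by rule were the 3 study genes, the 3 genes of largest absolute difference in each response class for levels differing after ABA only and after mock only, the 3 largest with opposite responses (each with a symbol and a mean of at least 5 CPM in a group), and up to 2 called genes of smallest p per list and direction; other names were chosen after their values were seen. Promoter windows came from the TAIR10.1 genome.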

Additional observations from a re-analysis of the deposited data

Results flagged for a closer look

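The test of the difference of ABA responses between cdk8 and WT called 501 genes higher and 602 lower, and every gene named by rule that it called is given here with its difference in log2 units, cdk8 minus WT. Induction was weaker in cdk8 for CBF4 (−4.34), SWEET15 (−3.17), RD20 (−1.76), SUS1 (−1.38), CER3 (−1.20), RD22 (−0.95), CER1 (−0.86), HAB1 (−0.83), ALMT12 (−0.74), NAC013 (−0.72) and HB7 (−0.70). CBF4 held 0 counts in WT mock libraries and lost its call under 18 of 23 alternatives. Its fitted size, and that of TPS04 below with 4 counts in cdk8 ABA libraries, depends on the handling of counts near 0. Induction was called in WT and not in cdk8 for NATA1 (−4.24), JRG21 (−4.13), CSLG2 (−3.96), SWEET2 (−1.93), PR3 (−1.60), PRODH2 (−1.09), NAC003 (−1.04), BRG3 (−0.98) and ARR4 (−0.96). Induction was stronger in cdk8 for SNRK2.9 (0.87), ABF1 (0.89), FER1 (1.00), E12A11 (1.05), PRR5 (1.25), WRKY40 (1.28), MLO12 (1.32), CBF1 (1.93) and CBF2 (2.02). Induction was called in cdk8 and not in WT for OPR3 (0.64), GRF5 (1.07), FER4 (1.12), AHP4 (1.83), PS2 (1.97) and ABCG40 (3.22). Repression was weaker in cdk8 for EXPA6 (0.62), CDKB2;1 (0.78), SQD1 (0.80), SNRK2.5 (0.93), ACS6 (1.07), PRR9 (1.08), LHCB2.2 (1.22), IAA19 (1.22), LHCB1.1 (1.24), MGD2 (1.46), TPX2 (1.52), NIP6;1 (1.58), MYB56 (1.65) and ORA47 (1.68). Repression was called in WT and not in cdk8 for RS5 (1.04), CDC20.1 (1.2), EPF2 (1.22), MYB12 (1.43) and DIC2 (1.70). Repression was stronger in cdk8 for FRO2 (−3.11), EXT13 (−2.27), IGMT2 (−1.83), LEA3 (−1.79), NDA1 (−0.76) and PAL2 (−0.48). Repression was called in cdk8 and not in WT for TPS04 (−8.23), FMO1 (−3.58), GH3.3 (−1.60), KAT1 (−1.53), WRKY70 (−1.45), PGL5 (−1.35), LOX2 (−1.19), GH3.6 (−0.84) and P5CS2 (−0.53). The called responses had opposite directions for CSLB03 (−1.72), NHL1 (−1.64), ORG1 (−1.52), PYE (−0.94) and TCH2 (1.08).

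Of these 74 genes, 40 were called in each of the 12 fits that left out 1 library. Leaving out cdk8 ABA replicate 1 ended the calls of ABCG40, ALMT12, ARR4, CBF1, CBF4, EXPA6, EXT13, FER1, GH3.3, GRF5, IGMT2, LEA3, MYB12, NAC003, NAC013, NATA1, NDA1, NIP6;1, OPR3, ORA47, PAL2, PRR9, PYE, RD22, RS5, TCH2, TPS04, WRKY40 and WRKY70. Without cdk8 ABA replicate 2 no call was made for EXT13, GH3.3, MYB12, NDA1 and PAL2. The fit without cdk8 ABA replicate 3 lost ARR4, CBF4, DIC2, FER1, MYB12, NAC003, NDA1, OPR3, PAL2, PRR9, RD22, TCH2, TPS04, WRKY40 and WRKY70. Leaving out cdk8 mock replicate 1 ended the calls of ABCG40, ALMT12, ARR4, CBF1, CBF4, DIC2, EPF2, EXPA6, EXT13, FER1, GH3.3, GRF5, LEA3, MYB12, NAC003, NAC013, NATA1, NDA1, NIP6;1, OPR3, PAL2, PRR9, PS2, PYE, RD22, RS5, SNRK2.9, TPS04, WRKY40 and WRKY70. Without cdk8 mock replicate 2 no call was made for ABCG40, ARR4, CBF1, CBF4, DIC2, EXPA6, EXT13, GH3.3, GRF5, MYB12, NAC013, NDA1, OPR3, PAL2, PRR9, RD22, RS5 and WRKY40. The fit without cdk8 mock replicate 3 lost ABCG40, CBF4, EPF2, FER1, GH3.3, GRF5, MYB12, NAC003, NATA1, PAL2, PRR9, PS2, RS5, TPS04, WRKY40 and WRKY70. Leaving out WT ABA replicate 1 ended the calls of CBF4, FER1, GH3.3, MYB12, NAC003, NAC013, NDA1, PAL2 and RS5. Without WT ABA replicate 2 no call was made for ABCG40, ARR4, CBF4, DIC2, FRO2, GH3.3, GRF5, MYB12, NDA1, OPR3, PAL2, PRR9, PS2, RS5, TCH2 and WRKY40. The fit without WT ABA replicate 3 lost ARR4, CBF4, EXT13, GH3.3 and TPS04. Leaving out WT mock replicate 1 ended the calls of ABCG40, ARR4, CBF1, CBF4, DIC2, FER1, GH3.3, GRF5, MYB12, NAC003, NDA1, NIP6;1, OPR3, PAL2, PRR9, RD22, RS5, TCH2 and WRKY40. Without WT mock replicate 2 no call was made for ALMT12, ARR4, CBF4, EXT13, FER1, GH3.3, GRF5, MYB12, NAC013, NDA1, PAL2, RD22, RS5, TCH2, TPS04 and WRKY70. The fit without WT mock replicate 3 lost ABCG40, ALMT12, ARR4, CBF4, EPF2, EXPA6, EXT13, FER1, GH3.3, MYB12, NAC003, NAC013, NATA1, NDA1, NIP6;1, OPR3, PAL2, PRR9, RD22, RS5, SNRK2.9, TCH2, TPS04, WRKY40 and WRKY70. The causes of these losses were not tested.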

How the results depend on the processing

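Other scalings, filters and tests gave counts of higher and lower calls within 1.5 times of the 501 and 602, except that DESeq2 called 1051 lower, 683 of weaker or lost induction and 315 of stronger or gained repression; under it 967 differed after ABA only and 412 after mock only. Requiring a 2-fold difference left 235 higher and 213 lower, with 136, 58, 160 and 58 genes in weaker or lost induction, stronger or gained induction, weaker or lost repression and stronger or gained repression; 199 differed after ABA only and 128 after mock only, and 11 mitotic, 3 photosynthesis, 2 phosphate and 1 cuticle gene were called. Without WT ABA replicate 3 and cdk8 ABA replicate 2 the counts were 896 higher and 1167 lower, 738, 285, 565 and 362 in the same classes, 1077 after ABA only and 558 after mock only, with 7 cuticle genes. Limma-voom called 2 phosphate genes. The causes were not tested.

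Leaving out 1 library gave 253 to 666 higher and 287 to 827 lower calls, 193 to 558, 65 to 214, 154 to 423 and 65 to 242 in those classes, 290 to 838 after ABA only and 116 to 396 after mock only. The list counts ran from 8 to 17 (mitotic), 3 to 5 (photosynthesis), 2 to 4 (phosphate) and 3 to 6 (cuticle). The CDK8 difference of −0.17, which was not called, changed sign to 0.03 without both libraries that stood apart, 0.08 without cdk8 ABA replicate 2 and 0.11 without cdk8 mock replicate 2; it ran from −0.38 to 0.11 over left-out libraries.

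Replicate numbers stand only in the column headers. Of 18 same-numbered pairs 2 had a correlation of deviations over 0.1 (range −0.294 to 0.157), and 1 of 12 libraries correlated best with its own number, so the numbers were not taken to pair the samples. With a replicate block, added after the data were seen as were the alternatives of the list counts, 302 genes were higher and 348 lower, 235, 85, 194 and 81 in those classes, 376 after ABA only and 161 after mock only, with 11 mitotic and 3 photosynthesis genes.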

Other observations

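The families given here were picked after their values were seen, from all families of genes that share a symbol, so their shares are descriptions only. Among them, CIPK kinases, which act with calcineurin B-like calcium sensors, were called for 7 of 21 tested members, 1 higher and 6 lower (33.3%, against 5.21% of all genes tested), with a median difference of −0.28 in log2 units (cdk8 minus WT response). CIPK13 (−2.65 ± 0.42) and CIPK16 (−1.31 ± 0.31) were called repressed in cdk8 and not in WT. CIPK3 (−0.82), CIPK15 (−0.79) and CIPK25 (−0.76) had weaker induction in cdk8, and CIPK20 (0.96) weaker repression. All but CIPK9 and CIPK20 differed between genotypes after ABA only.

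Of 16 tested KCS genes, enzymes that elongate fatty acids for wax and other lipids, 1 was higher and 4 were lower (31.2%), with a median of −0.47. KCS3 (−1.05 ± 0.17) and KCS9 (−0.48 ± 0.11) had weaker induction in cdk8, and KCS10 (−0.69 ± 0.16) was called induced in WT and not in cdk8. KCS8 was higher (1.05 ± 0.12). Of 57 NAC factors none was called higher and 7 were lower (12.3%), NAC083 with the smallest p (−1.10 ± 0.14).

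Of 13 tested ENODL genes, early nodulin-like proteins of the cell surface, 4 were higher and 2 lower (46.2%). ENODL13 (1.45 ± 0.36), ENODL14 (1.38 ± 0.22) and ENODL15 (1.09 ± 0.21) were repressed in WT without a call in cdk8.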
